A study of Mus musculus with 8 samples.

Results

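Serine, glycine, proline and asparagine are amino acids that a cell can make for itself, and 9 genes that encode the enzymes of these routes were followed in primary murine cardiac fibroblasts, the matrix-producing cells of the heart. The 9 genes were taken by their symbols: Phgdh, Psat1 and Psph for serine, Shmt1, Shmt2 and Mthfd2 for glycine and the folate-bound one-carbon units released with it, Aldh18a1 and Pycr1 for proline, and Asns for asparagine. All 9 were present among the 22274 genes of the deposited table. RNA was sequenced from 4 libraries labelled GFP and 4 labelled OEIRF7. The cells of both groups had received TGF-β, the cytokine that turns fibroblasts into myofibroblasts, at 5 ng/ml for 24 h, and no library without TGF-β was analysed here.

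According to the study the cells were transduced with an adenovirus, either an empty vector or one with FLAG-tagged IRF7, an interferon-regulated transcription factor. The IRF7 adenovirus was listed among the reagents with the human gene behind a CMV promoter, which is active in most cell types. That list names EGFP in this virus and in a FLAG-EGFP adenovirus without IRF7. The design text deposited in the repository speaks of adeno-associated virus. The methods place the study's mouse strains on a C57BL/6 J background, while the age and number of the mice behind these cultures are not given in the sources used here. The legend for the experiment speaks of biological replicates, in a number that differs from the 4 libraries per group, and does not say which libraries these were. P-values thus measure the spread between these libraries, part of which may be technical. Mouse Irf7 lay between 92.0 and 147 CPM in the libraries labelled GFP and between 14.5 and 16.4 CPM in those labelled OEIRF7. CPM are counts divided by library size, scaled between libraries by the trimmed mean of M values (TMM). Mouse Irf7 was thus lower, by 2.96 on the log2 scale, in the libraries labelled OEIRF7. Reads were mapped to the mouse genome, and how many reads of a human insert were counted for mouse Irf7 was not tested. The level of the insert is therefore not known from this row, and the group is called by its label throughout.

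Total counts per library were 24454801 to 28658826. The summed level of 9 fibroblast markers was 3060 to 3170 FPKM (fragments scaled to the length of the gene and the depth of the library) under the GFP label and 3166 to 3375 FPKM under the OEIRF7 label, a sum carried mostly by Vim, Col1a1 and Col1a2. Of these 9 markers, 4 were called lower (Tcf21, log2 fold change -1.33, Lum, -0.35, Ddr2, -0.25, and Col1a1, -0.16), 2 higher (Pdgfra, 0.25, and Vim, 0.22) and 3 not called, with a median of -0.08. Of 9 cardiomyocyte markers, 6 stayed under 10 counts in every library. Tnnt2 carried most of the cardiomyocyte sum given below, at 10.2 FPKM under the GFP label and 7.31 FPKM under the OEIRF7 label. It was called lower (log2 fold change -0.54). Summed endothelial markers (7 genes) were at 74.6 to 78.5 against 77.8 to 84.9 FPKM, macrophage and leukocyte markers (7 genes) at 59.6 to 65.6 against 69.8 to 83.3 FPKM, mural markers (6 genes) at 9.08 to 10.03 against 10.7 to 13.3 FPKM, epicardial markers (5 genes) at 27.2 to 31.6 against 27.4 to 32.8 FPKM, and cardiomyocyte markers at 8.81 to 12.3 against 7.09 to 9.35 FPKM. None of these markers was without counts in all libraries. The macrophage and mural sums and the proliferation markers Mki67 (log2 fold change -1.26) and Top2a (-1.30) moved with the groups, and their part in the results given here was not tested. Of the macrophage and leukocyte markers 4 were called higher and 0 lower, whereas the mural markers went both ways, with Cspg4 (2.73 to 7.87 FPKM) and Rgs5 (log2 fold change 0.73) higher and Notch3 (-1.61) and Myh11 (-0.98) lower, and Cspg4 carried the higher sum. Over all tested genes, 29.0% were called higher and 29.9% lower. In bulk RNA, fewer cells that express a gene and less RNA per cell cannot be told apart.

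Serine is drawn from glycolysis. Phgdh diverts an intermediate of sugar breakdown, Psat1 adds an amino group taken from glutamate, and Psph removes the phosphate, after which the hydroxymethyltransferases split serine into glycine and a one-carbon unit. Proline is made from glutamate by Aldh18a1 and the reductase Pycr1, asparagine from aspartate by Asns. Glycine and proline fill a large part of the collagen chain, so that fibroblasts use much of both, and several of these genes are textbook targets of ATF4, the transcription factor that responds to a shortage of amino acids.

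ATF4 acts with C/EBP proteins on a composite element, and Asns is the gene in which that element is best known. RefSeq promoters (GRCm38.p6, 250 bases before to 50 bases after each annotated start) were found for all 9 genes, 10 promoters in all because Psat1 had a pair. They were searched on both strands for TGATGNAA, the core of the C/EBP-ATF element, and for the core of interferon-stimulated response elements, the word GAAA followed after 2 bases of any kind by a further GAAA. Matches of the motifs can share bases but were counted separately. The first was held by 2 of the 10 promoters, those of Asns and Pycr1, and by 3.97% of all 32851 promoters of the same length. The second was held by 0 of the 10 and by 3.44% of all promoters, which says only that these letters are not in these windows. Both matched promoters are shown because one belongs to a gene that fell and the other to a gene that was not called. Capitals mark the match, and both genes lie on the minus strand, so that the letters are those of that strand, 5′ to 3′.
Asns promoter, chr6:7693160-7693459: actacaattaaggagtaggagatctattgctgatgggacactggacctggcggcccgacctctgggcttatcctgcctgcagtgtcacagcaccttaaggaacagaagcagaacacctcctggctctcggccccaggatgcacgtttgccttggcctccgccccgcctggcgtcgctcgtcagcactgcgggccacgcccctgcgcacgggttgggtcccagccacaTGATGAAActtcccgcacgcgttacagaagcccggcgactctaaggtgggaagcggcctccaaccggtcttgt
Pycr1 promoter, chr11:120643699-120643998: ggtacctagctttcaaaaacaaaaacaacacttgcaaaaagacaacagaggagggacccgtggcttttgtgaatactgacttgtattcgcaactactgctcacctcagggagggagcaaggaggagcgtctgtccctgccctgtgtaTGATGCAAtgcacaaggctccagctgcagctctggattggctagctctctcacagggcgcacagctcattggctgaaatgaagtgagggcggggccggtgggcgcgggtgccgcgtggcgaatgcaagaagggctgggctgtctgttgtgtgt
In Asns the match (TGATGAAA) begins 23 bases before the annotated start, and in Pycr1 (TGATGCAA) it begins 103 bases before it. A match of letters is a description of the sequence and no evidence of binding.

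The groups were compared by edgeR's quasi-likelihood test over 13533 genes with enough counts, and a gene was called when its Benjamini-Hochberg adjusted p, taken over all these genes, was below 0.05. All 9 synthesis genes were tested. Phgdh, Asns, Mthfd2 and Aldh18a1 fell under the OEIRF7 label, Psat1 rose, and Psph, Shmt1, Shmt2 and Pycr1 were not called. The count of 1 of 9 higher stood against 29.0% of all tested genes called higher, and that of 4 of 9 lower against 29.9% called lower. The groups did not overlap in 4 of the 9, against 53.8% of all tested genes. None of the 9 was both called and past 1.5-fold, a size reached by 18.9% of all tested genes in one direction or the other. The median log2 fold change of the 9 was -0.05 and that of all tested genes 0.00. The median size of change over all tested genes, regardless of sign, was 0.25, and Phgdh and Asns were the 2 members beyond it.

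**Figure D1:**
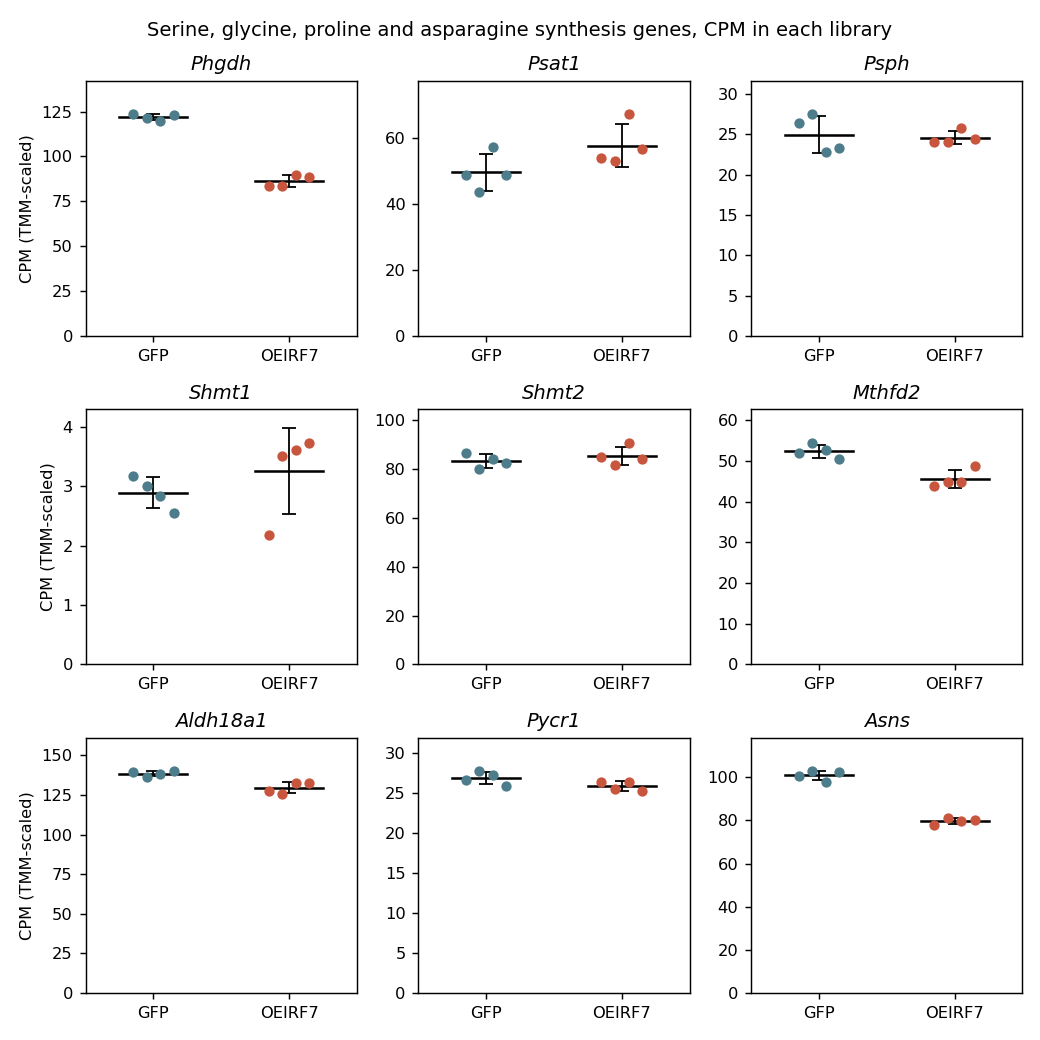
CPM of each of the 9 genes (vertical axis, TMM-scaled, from 0) in the 4 libraries labelled GFP and the 4 labelled OEIRF7; points are libraries, the long bar is the mean and the error bar the SD. Phgdh and Asns show a clear gap between the groups (Phgdh 122 and 86.3 CPM on average), Mthfd2 and Aldh18a1 a narrow one, and the other 5 genes overlap.

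Phgdh (chr3:98313170-98339990 in GRCm38, minus strand) encodes phosphoglycerate dehydrogenase, which commits carbon to serine. In the 4 libraries labelled GFP it stood at 123, 122, 120 and 123 CPM, and in those labelled OEIRF7 at 83.8, 83.3, 89.6 and 88.6 CPM. Every library of the second group was below every library of the first. The mean fell from 122 ± 1.57 to 86.3 ± 3.26 CPM (SD, n = 4 each), a log2 fold change of -0.50 with a standard error (SE) of 0.04 (edgeR, Benjamini-Hochberg adjusted p = 2.24e-08). This was the largest change in size among the 9 genes, and it was at the 12.9th percentile of the signed changes of all tested genes. A two-sided permutation test over the libraries, run exactly on log2 CPM, gave p = 0.0286, the smallest that 4 libraries against 4 allow. On the FPKM scale 1 library departed from its counts: Phgdh was at 79.3 FPKM in GFP replicate 2 and at 64.2 to 66.5 FPKM in the other 3 libraries labelled GFP, although its CPM was alike in all 4.

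Psat1 (chr19:15904678-15947337, minus strand), the aminotransferase of the second step, went the other way. Its level was 48.8, 43.7, 57.2 and 48.7 CPM under the GFP label and 53.9, 52.9, 67.3 and 56.8 CPM under the OEIRF7 label. The groups overlapped, since GFP replicate 3 was above all but 1 of the libraries labelled OEIRF7, and the highest library of each group carried the number 3. The mean rose from 49.6 ± 5.60 to 57.7 ± 6.57 CPM (SD, n = 4 each), with a log2 fold change of 0.22 (SE 0.08, 95% confidence interval 0.04 to 0.39, edgeR adjusted p = 0.0329). Its SD was 11.3% of the mean in the libraries labelled GFP, against 1.28% for Phgdh. The permutation test gave an exact two-sided p of 0.114. The call was kept under all 8 alternatives that used every library, most clearly with the replicate number as a block (edgeR adjusted p = 0.000335). It was lost when any of 5 libraries was left out in turn: GFP replicate 1 (log2 fold change 0.21, edgeR adjusted p = 0.0743), GFP replicate 2 (0.16, adjusted p = 0.1001), GFP replicate 4 (0.21, adjusted p = 0.0723), OEIRF7 replicate 3 (0.14, adjusted p = 0.104) and OEIRF7 replicate 4 (0.23, adjusted p = 0.0522). A processed pseudogene, Gm3329, lies within Psat1 on the opposite strand.

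Psph (chr5:129765558-129787449, minus strand), the phosphatase that ends serine synthesis, was at 26.3, 27.5, 22.8 and 23.3 CPM under the GFP label and at 24.1, 24.1, 25.8 and 24.5 CPM under the OEIRF7 label. The libraries labelled OEIRF7 lay inside the range of the other group. The log2 fold change was -0.02, with a 95% confidence interval of -0.16 to 0.12 (edgeR adjusted p = 0.799), an interval that does not reach the change of Phgdh. Psph overlaps Cct6a on the opposite strand, a chaperonin subunit gene that was itself called higher by 0.12 on the log2 scale. The strand setting of the counting is not stated in the sources used here, and reads of such neighbours may not be told apart.

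Of the 3 genes of serine synthesis, 1 thus fell, 1 rose and 1 was not called. Whether the first and the last step changed unequally was tested within each library, where scaling cancels, as 1 of 4 pairs of enzymes compared by the exact two-sided permutation test with Benjamini-Hochberg adjustment over the 4. The log2 ratio of Phgdh to Psph was 2.23, 2.14, 2.39 and 2.40 in the libraries labelled GFP and 1.796, 1.787, 1.794 and 1.85 in those labelled OEIRF7. All 4 ratios of the second group were below all 4 of the first, and they lay closer together. The difference of the means was -0.48 (SE 0.07, 95% confidence interval -0.64 to -0.32). The exact permutation p of 0.0286 was the smallest the design allows, and after adjustment over the 4 pairs (p = 0.0571) it missed the threshold. Unless a further pair had also reached the smallest p, the adjusted value could not have been lower, whatever the size of the change.

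**Figure D2:**
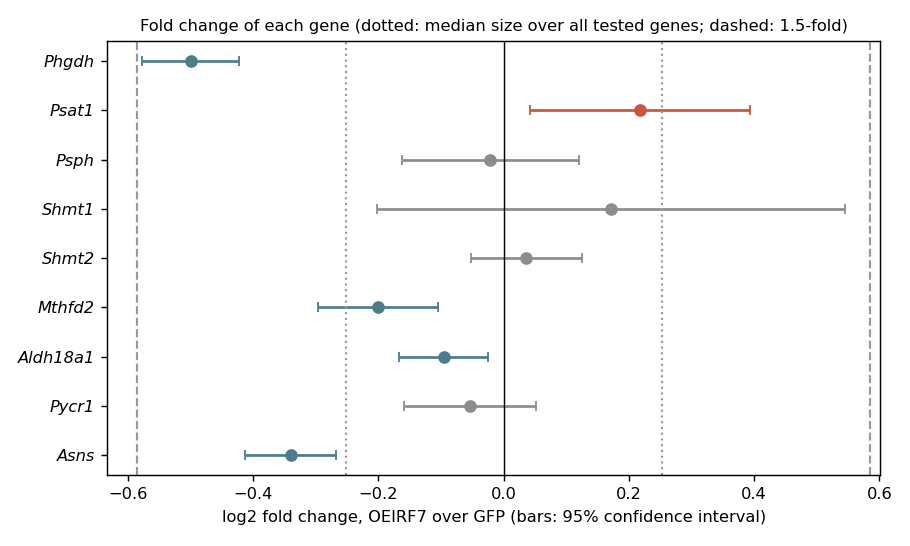
Log2 fold change of each gene, OEIRF7 over GFP, from edgeR (points) with 95% confidence intervals (bars); red is called higher, blue called lower and grey not called, dotted lines mark the median size over all tested genes (0.25) and dashed lines 1.5-fold. The intervals of Phgdh (-0.58 to -0.42) and Asns (-0.41 to -0.27) lie wholly beyond the dotted line, and that of Shmt1 (-0.20 to 0.54) is the widest.

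Shmt1 and Shmt2 encode the cytosolic and the mitochondrial serine hydroxymethyltransferase, which make glycine from serine. Per length of transcript the mitochondrial form dominated, with 36.0 ± 1.21 FPKM for Shmt2 and 1.003 ± 0.0954 FPKM for Shmt1 in the libraries labelled GFP (SD, n = 4). Shmt2 (chr10:127517123-127522444, minus strand) was at 86.5, 79.8, 84.0 and 82.3 CPM under the GFP label and 84.9, 81.6, 90.7 and 84.0 CPM under the OEIRF7 label. These ranges overlapped, with OEIRF7 replicate 3 above and GFP replicate 2 below every library of the other group, and the log2 fold change was 0.04, with a 95% confidence interval of -0.05 to 0.12 (edgeR adjusted p = 0.470). Shmt1 (chr11:60788104-60811718, minus strand) rested on 56 to 102 counts per library. It was at 3.17, 3.005, 2.84 and 2.56 CPM under the GFP label and at 2.17, 3.52, 3.61 and 3.73 CPM under the OEIRF7 label, so that 3 libraries of the second group were above all of the first and 1 was below all of them. The log2 fold change was 0.17 (95% confidence interval -0.20 to 0.54, edgeR adjusted p = 0.418), and without OEIRF7 replicate 1 it was 0.32 and still not called (edgeR adjusted p = 0.0766).

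Both hydroxymethyltransferase genes overlap a neighbour on the opposite strand that was called higher. Smcr8, a regulator of autophagy that overlaps Shmt1, rose from 107 ± 4.64 to 135 ± 7.73 CPM (SD, n = 4), and Ndufa4l2, a mitochondrial protein gene that overlaps Shmt2, rose from 2.36 ± 0.47 to 4.04 ± 0.40 CPM. Reads of Smcr8 were far more numerous than those of Shmt1, and how many of either were counted for the other was not tested. The log2 ratio of Shmt2 to Shmt1 was 4.74, 4.70, 4.85 and 4.97 under the GFP label and 5.24, 4.51, 4.62 and 4.46 under the OEIRF7 label. The groups overlapped, and the difference of -0.10 had a 95% confidence interval of -0.57 to 0.36 (exact permutation p = 0.657, adjusted p = 0.657), wide enough to hold a fall of the size seen for Phgdh. Single libraries moved this difference to -0.28 (without OEIRF7 replicate 1, exact permutation, adjusted p = 0.0762) or -0.02 (without OEIRF7 replicate 4).

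Mthfd2 (chr6:83305691-83325908, minus strand) is the mitochondrial folate enzyme that carries the one-carbon unit of serine forward, a protein abundant in embryonic and dividing cells. It was at 51.9, 54.4, 52.5 and 50.3 CPM in the libraries labelled GFP and at 43.9, 44.7, 44.8 and 48.7 CPM in those labelled OEIRF7. The groups did not overlap, with OEIRF7 replicate 4 closest to the other group. The mean fell from 52.3 ± 1.70 to 45.5 ± 2.18 CPM (SD, n = 4 each), by 0.20 on the log2 scale (SE 0.04, edgeR adjusted p = 0.00131, exact permutation p = 0.0286). Its paralog Mthfd2l, which catalyses the same step in many adult tissues, was at 12.2, 12.0, 11.0 and 9.34 CPM against 12.4, 12.2, 15.3 and 11.8 CPM. Those groups overlapped and Mthfd2l was not called (log2 fold change 0.21, edgeR adjusted p = 0.0916). The log2 ratio of Mthfd2 to Mthfd2l was 2.08 to 2.42 under the GFP label and 1.54 to 2.04 under the OEIRF7 label. It did not overlap between the groups, and the difference of the means was -0.41 (SE 0.13, 95% confidence interval -0.72 to -0.10, exact permutation p = 0.0286), which likewise missed the threshold after adjustment (exact permutation, adjusted p = 0.0571). The same limit of the design held for this ratio. A further annotated gene, Gm43890, overlaps Mthfd2 on the same strand.

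Aldh18a1 (chr19:40550257-40588463, minus strand) encodes the mitochondrial synthase that turns glutamate into the precursor of proline and ornithine. It was at 140, 136, 138 and 140 CPM under the GFP label and at 128, 125, 133 and 133 CPM under the OEIRF7 label. All libraries of the second group were lower, by a small margin. The mean fell from 139 ± 1.70 to 130 ± 3.72 CPM (SD, n = 4 each), by 0.10 on the log2 scale (SE 0.03, 95% confidence interval -0.17 to -0.02, edgeR adjusted p = 0.0223). The call was lost without OEIRF7 replicate 1 (edgeR adjusted p = 0.0657) or replicate 2 (0.0695), without scaling beyond library size (log2 fold change -0.07, edgeR adjusted p = 0.0797), and on log2(FPKM + 1) or log2(FPKM + 0.1) (-0.07 in both, limma adjusted p = 0.167 and 0.172). A processed pseudogene, Gm15801, lies within Aldh18a1 on the same strand.

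Pycr1 (chr11:120635712-120643769, minus strand), the mitochondrial reductase of the last step to proline, was at 26.6, 27.7, 27.2 and 25.9 CPM under the GFP label and at 26.4, 25.5, 26.4 and 25.2 CPM under the OEIRF7 label. The groups overlapped and the log2 fold change was -0.05 (95% confidence interval -0.16 to 0.05, edgeR adjusted p = 0.360).

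Prodh, the dehydrogenase that starts proline breakdown, was scarcely transcribed, with 12 to 29 counts per library and 0.40 ± 0.17 and 0.52 ± 0.13 FPKM in the groups labelled GFP and OEIRF7 (SD, n = 4). Aldh18a1 stood at 40.1 ± 0.68 and 38.3 ± 1.73 FPKM. The log2 CPM ratio of Aldh18a1 to Prodh spanned 7.04 to 8.03 in the first group and 6.87 to 7.73 in the second, and the difference of -0.31 had a 95% confidence interval of -1.002 to 0.38 (exact permutation p = 0.314, adjusted p = 0.419). It ranged from -0.48 (without GFP replicate 3) to -0.15 (without GFP replicate 4) with a library left out. A change of the ratio of Aldh18a1 to Prodh was therefore not detected, with a wide interval and low counts of Prodh. Aldh4a1, the last enzyme of proline breakdown, had more counts and is given below. Prodh overlaps Dgcr6 on the opposite strand, which was called lower by 0.31 on the log2 scale.

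**Figure D3:**
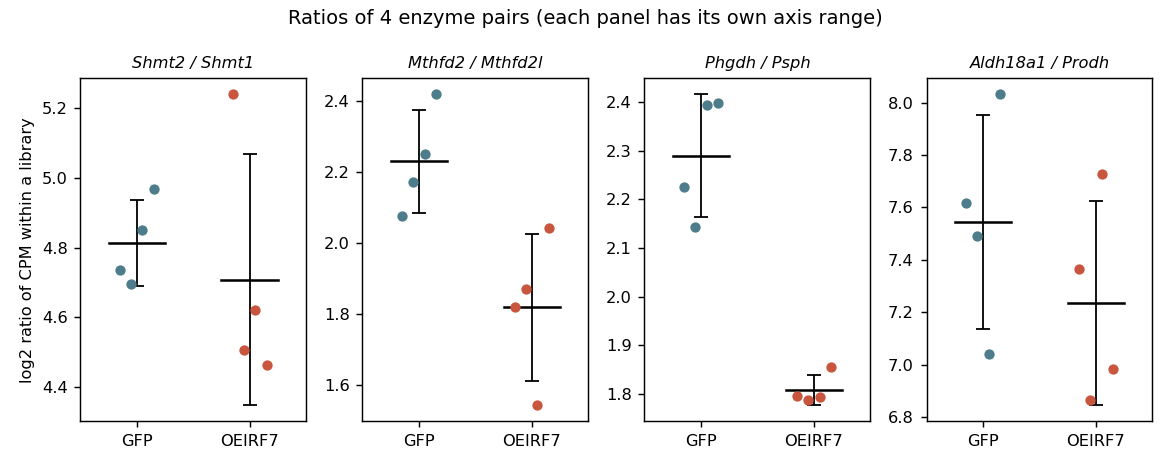
Log2 ratio of CPM of 4 enzyme pairs within each library (points), with the mean (long bar) and SD (error bar) of the 4 libraries labelled GFP and the 4 labelled OEIRF7; each panel has its own vertical range. The groups do not overlap for Mthfd2 to Mthfd2l and Phgdh to Psph (means 2.29 and 1.81), and overlap for Shmt2 to Shmt1 and Aldh18a1 to Prodh.

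Asns (chr6:7675169-7693254, minus strand) encodes asparagine synthetase, which moves an amide group from glutamine to aspartate. It stood at 101, 103, 98.0 and 102 CPM in the libraries labelled GFP and at 77.7, 81.1, 79.8 and 80.2 CPM in those labelled OEIRF7. The gap between the groups was wide against the spread within them, whose SD was 2.15% and 1.84% of the mean. The mean fell from 101 ± 2.17 to 79.7 ± 1.46 CPM (SD, n = 4 each), a log2 fold change of -0.34 (SE 0.03, 95% confidence interval -0.41 to -0.27, edgeR adjusted p = 7.47e-07, exact permutation p = 0.0286). Asns and Pycr1 are the members whose promoters hold the TGATGNAA letters, and the interval of the second (-0.16 to 0.05) does not overlap that of the first, although the difference itself was not tested.

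Per length, the order of the 9 genes was compared on FPKM, where GFP replicate 2 raises the spread of Phgdh. Under the GFP label Phgdh led with 68.8 ± 7.06 FPKM (SD, n = 4), followed by Asns at 49.9 ± 1.05, Aldh18a1 at 40.1 ± 0.68, Shmt2 at 36.0 ± 1.21, Mthfd2 at 25.04 ± 0.91, Psat1 at 19.6 ± 2.30, Pycr1 at 16.2 ± 0.41, Psph at 14.9 ± 1.35 and Shmt1 at 1.003 ± 0.0954 FPKM. Only the ranges of Pycr1 and Psph overlapped among neighbours in this order. Under the OEIRF7 label Phgdh still led, at 46.1 ± 1.45 FPKM, without overlap with Asns (40.2 ± 0.72). The range of Asns overlapped that of Aldh18a1 (38.3 ± 1.73), and the range of Aldh18a1 that of Shmt2 (37.7 ± 1.53). Shmt2 did not overlap Psat1, the next gene. Psat1 (23.5 ± 2.47) and Mthfd2 (22.4 ± 0.85) stood in exchanged order with overlapping ranges. The first 4 genes of the order thus stood closer together in FPKM under the OEIRF7 label than under the GFP label.

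The 3 tested genes whose pattern over the 8 libraries was most like that of Phgdh, by the root mean square difference of centred log2 CPM, were Vps41 (0.015), Kctd10 (0.019) and Tmem9b (0.022), against a median of 0.30 for all other tested genes. These 3 were picked as the smallest distances, so that they had to lie below the median. Vps41 belongs to a tethering complex of lysosomes, Kctd10 is an adaptor of a ubiquitin ligase, and Tmem9b is a membrane protein of lysosomes. A link of these genes to Phgdh was not tested.

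Around the 9 genes, 23 genes of one-carbon and glycine metabolism were listed, of which 21 were tested: 6 rose, 7 fell and 8 were not called, with a median log2 fold change of 0.01. In this and the following lists, the counts stand beside 29.0% called higher and 29.9% called lower over all tested genes. The largest rises were Gcsh (0.68), the carrier protein of the glycine cleavage system, Mtr (0.66), which remakes methionine, and Mthfd1l (0.45), the mitochondrial formate producer downstream of Mthfd2. The largest falls were Gldc (-0.90), the decarboxylase of the glycine cleavage system, Slc25a32 (-0.71), the mitochondrial folate carrier, and Srr (-1.73), which makes D-serine. The carrier and the decarboxylase of glycine cleavage, parts of the same complex, thus went in opposite directions: Gcsh rose from 40.0 ± 0.69 to 65.3 ± 1.05 FPKM and Gldc fell from 5.84 ± 0.26 to 3.19 ± 0.24 FPKM (SD, n = 4). The other parts of this system, Dld (log2 fold change -0.06) and Amt (0.001), were not called, and Amt had only 28 to 44 counts per library. Srr overlaps Tsr1 and Smg6 on the opposite strand, and its FPKM fell less than its counts, from 11.2 ± 1.25 to 4.75 ± 0.75.

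In the list of proline, ornithine and glutamate metabolism 14 of 15 genes were tested, and 7 rose, 5 fell and 2 were not called (median log2 fold change 0.27). Among genes above 1 FPKM, the largest rises were the aspartate aminotransferase Got1 (0.63), the polyamine enzyme Odc1 (0.58) and the dipeptidase Pepd (0.38), which frees proline from peptides of broken-down collagen. The largest falls were Aldh4a1 (-0.94), the last enzyme of proline breakdown, Got2 (-0.54), the mitochondrial aspartate aminotransferase, and Oat (-0.31), which links ornithine to proline. Aldh4a1 went from 10.3 ± 0.20 to 5.47 ± 0.40 FPKM (SD, n = 4), beside log2 fold changes of -0.10 for Aldh18a1 and -0.05 for Pycr1 on the side of synthesis. The difference between these genes was not tested. The highest fold changes of this list, Arg1 (1.79) and Arg2 (1.73), belong to arginases below 1 FPKM and were named after their values were seen.

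The list of asparagine, aspartate and alanine genes, which shares Got1 and Got2 with the previous one, had 11 of 12 genes tested, of which 6 rose, 3 fell and 2 were not called (median log2 fold change 0.39). Ass1, which joins aspartate to citrulline, rose from 188 ± 6.64 to 293 ± 24.5 FPKM (SD, n = 4), a log2 fold change of 0.61, Adssl1, which joins aspartate to inosine monophosphate, rose by 0.99 on that log2 scale, and Got1 rose as given. Asrgl1 (-1.18), an asparaginase, Gpt2 (-0.78), the mitochondrial alanine aminotransferase, and Got2 fell. The synthetase Asns and the asparaginase Asrgl1 were thus both lower under the OEIRF7 label.

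Of ATF4 and its regulators and targets, 23 genes were tested, and 8 rose, 4 fell and 11 were not called (median log2 fold change 0.06). Atf4 itself stood at 134 ± 4.98 and 142 ± 6.56 FPKM in the groups labelled GFP and OEIRF7 (SD, n = 4) and was not called (log2 fold change 0.06, edgeR adjusted p = 0.198). ATF4 is controlled largely through translation, which RNA counts do not measure. The largest rises were Cebpb (1.17), a C/EBP factor, Myc (0.82) and Atf3 (0.75), and the largest falls Stc2 (-1.10), a secreted stress glycoprotein, Chac1 (-0.66), which breaks down glutathione, and Atf5 (-0.42). Cebpb overlaps Tmem189, and Atf5 overlaps Nup62 and Il4i1, on opposite strands. Among 20 cytosolic aminoacyl-tRNA synthetases, which charge tRNAs with amino acids, 7 rose, 3 fell and 10 were not called (median 0.03), led upwards by Rars (0.38), Kars (0.34) and Wars (0.26) and downwards by Vars (-0.26), Lars (-0.16) and Iars (-0.10).

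Of 12 amino acid transporters 4 rose, 0 fell and 8 were not called (median log2 fold change 0.07), against 29.0% higher and 29.9% lower over all tested genes. The largest rises were in the cystine carrier Slc7a11 (1.43), the arginine and lysine carrier Slc7a3 (0.80) and the glutamine carrier Slc38a1 (0.54). Slc7a3 was low, with 27 to 80 counts per library and means of 0.58 (GFP) and 1.05 FPKM (OEIRF7). Of 14 collagen chains, the products rich in glycine and proline, 11 fell, 1 rose and 2 were not called (median -0.29), beside 29.9% lower and 29.0% higher over all tested genes, and their summed level was 4887 to 5096 FPKM under the GFP label and 3875 to 4122 FPKM under the OEIRF7 label. Col5a3 (1.71) was the chain that rose, and Col6a1 (-1.52), Col4a1 (-0.73) and Col11a1 (-0.73) fell most. Col4a1 and Col4a2 overlap on opposite strands. The collagen sum was lower in all 4 libraries labelled OEIRF7 than in all 4 labelled GFP, as was the CPM of Phgdh, Asns, Mthfd2 and Aldh18a1. Psph, Shmt1, Shmt2 and Pycr1 were not called, and Psat1 was called higher. The groups did not overlap in 53.8% of all tested genes, and a link between collagen and the synthesis genes was not tested.

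**Figure D4:**
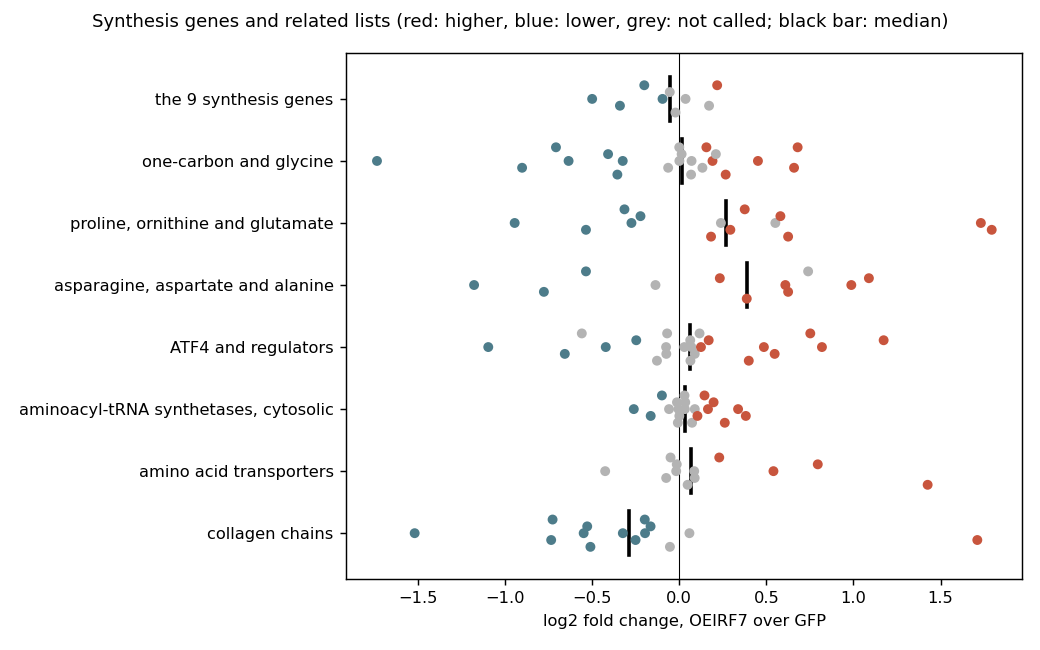
Log2 fold change, OEIRF7 over GFP (horizontal axis), of the 9 synthesis genes and of the tested genes of 7 related lists; each point is a gene, red called higher, blue called lower and grey not called by edgeR, and the black bar is the median of the list. The synthesis genes span a narrow range (-0.50 to 0.22) around a median of -0.05, and the collagen chains have the lowest median (-0.29).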

How the data were processed

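RNA-seq libraries of primary murine cardiac fibroblasts were grouped by the titles of the labels, 4 labelled GFP and 4 labelled OEIRF7. According to the study's methods, reads were trimmed with Trimmomatic and mapped to GRCm38 with HISAT2. The authors deposited raw counts per gene from HTSeq-count and FPKM from Cufflinks, normalized for gene length and depth and rounded to 2 decimals. Tool versions and the strand setting are not given in the sources used here, and the labels and the methods name different extraction and library kits. The group means of FPKM, log2 ratio, p-value and FDR of the authors' own comparison were not used.

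Differences were tested on the counts by edgeR 4.0.16 under R 4.3.3 (filterByExpr, TMM, glmQLFit, glmQLFTest, no covariate), with 13533 of 22274 genes kept and Benjamini-Hochberg adjustment over them. A prior count of 2 was added for log2 CPM. TMM factors were 0.989 to 1.01, and replicates differed beyond sampling noise in every pair (chi-square per degree of freedom 2.91 to 9.94). Ratios of 2 genes were compared by the exact permutation test, and their intervals used Student's distribution over the 8 libraries. The fits were tested on simulated data. Symbols were restored by identifier, since 121 held GFP in place of other letters, and none of these was a synthesis gene. Coordinates are from GENCODE M21 and promoters from RefSeq, both GRCm38. Named genes were the 9, both genes of each pair, the 3 largest rises and falls of each list among called genes above 1 FPKM in either group, Irf7, Mki67, Top2a and the 3 genes nearest to Phgdh in pattern; Arg1, Arg2, Atf4 and overlapping neighbours were added beside the result that they touch. A further pair of enzymes, planned as one of the family of ratios, is not reported here, and the adjustment runs over the 4 that are. The 9 genes and all lists were chosen with earlier results of these data known.

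Alternatives were DESeq2 1.42.0, no scaling, upper-quartile scaling, minima of 1 count in total or 10 in every library, the replicate block, limma 3.58.1 on log2(FPKM + 1) and log2(FPKM + 0.1) above a mean of 0.1 FPKM, a prior count of 0.5 for the ratios, and leaving out each library.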

Additional observations from a re-analysis of the deposited data

Results flagged for a closer look

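Of the 26 sets of 4 values tested for an outlying library, over both groups, 2 had one that stood apart from the other 3, both in the libraries labelled OEIRF7, judged by its gap to the nearest value over the range of the group by Dixon's test at the 95% level. Chance alone marks about 1 in 20 such sets. For Shmt1, OEIRF7 replicate 1 was at 2.17 CPM and the other 3 were at 3.52 to 3.73 CPM, a gap of 0.862 of the range. For the log2 ratio of Phgdh to Psph, OEIRF7 replicate 4 was at 1.85 and the other 3 at 1.787 to 1.796, a gap of 0.866 of a range that was itself narrow.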

How the results depend on the processing

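Phgdh, Asns and Mthfd2 were called lower under all 16 alternatives (log2 fold changes -0.57 to -0.47, -0.35 to -0.31 and -0.23 to -0.15), Shmt1, Shmt2, Psph and Pycr1 under none of them in either direction. Psph, never called, changed sign without scaling (0.0056), without GFP replicate 1 (0.0033) and without GFP replicate 2 (0.026), and ranged from -0.063 to 0.026 with a library left out. Leaving out single libraries gave 0 to 1 genes called higher, 3 to 4 called lower and 7506 to 7775 genes called in all, against 7969. The differences in log2 ratio of Mthfd2 to Mthfd2l and of Phgdh to Psph ranged from -0.48 to -0.32 and from -0.53 to -0.45 with a library left out, where 3 libraries against 4 cannot give a p below 0.0571. With the replicate block they were -0.41 and -0.48 with an adjusted p of 0.250 by the exact sign-flip test, whose smallest p with 4 pairs is 0.125. Samples of the same number deviated together weakly (correlations 0.0792 to 0.138), but each library was closest to its own number. Between unequal numbers the correlations were -0.158 to 0.0476. The main fit took no pairs, and whether equal numbers are pairs was not settled. The block called 8211 genes, with 1 synthesis gene higher and 4 lower. Shmt1 and Prodh are limited by their low counts. The causes of these shifts were not tested.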
